A study of Mus musculus with 23 samples.

Results

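The interleukin-1 and TNF family was followed here through 10 genes in the mouse sciatic nerve (SN): the ligands Il1a, Il1b, Il33, Il18 and Tnf, the receptor antagonist Il1rn, and the receptors Il1r1, Il1r2, Tnfrsf1a and Tnfrsf1b. The members were chosen by symbol, and all 10 were found among the 43068 genes of the crush files and the 22880 genes of the mutant files. RNA sequencing of whole SNs gave 23 libraries in 7 groups. In the crush experiment, wild-type C57BL/6J males gave 4 crushed nerves at 3 days post crush (3 dpc), taken distal to the crush, 4 contralateral nerves of injured mice and 3 uncrushed nerves, and surgery was done under isoflurane with buprenorphine. In the mutant experiments, nerves were taken 3 months post tamoxifen (3 mpT) from 3 mice with P0-CreERT2 -/+ and Dicer1 flox/flox (Dicer iKO), 3 with P0-CreERT2 -/+ and Dgcr8 flox/flox (Dgcr8 iKO), and 3 Cre-negative controls (P0-CreERT2 -/-) for each line. All mutant and control mice of these lines were adult at induction, carried the floxed alleles in the C57BL/6 background and received tamoxifen. The Cre transgene is active in myelinating Schwann cells (SCs), so the deletion was aimed at one lineage of the nerve. Mutants were preselected by their morphology, and mice of either sex were used, unlike in the crush experiment.

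Total counts were 6617716 to 12806066 per crush library and 5594859 to 10143244 per mutant library. SC markers were present in all groups (7 of 7 detected), while the summed level of 4 skeletal muscle markers stayed at or below 16.8 CPM (counts scaled to library size, with TMM factors) and that of 4 keratinocyte markers at or below 4.73 CPM. Gene-level counts sum floxed and unfloxed exons from all cells of the nerve, so they check the deletion only weakly. Dicer1 was at 82.1 ± 0.924 CPM (SD, n = 3) in Dicer iKO and 89.1 ± 1.61 CPM (n = 3) in its controls. Dgcr8 was at 44.9 ± 7.72 CPM in Dgcr8 iKO against 38.3 ± 3.51 CPM for controls, with overlapping ranges. By PCR, the paper reports lower Dicer mRNA in Dicer iKO and lower Dgcr8 mRNA in Dgcr8 iKO. It also reports lower levels of an abundant microRNA in both lines.

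IL-1α and IL-1β, encoded by Il1a and Il1b, act on the same receptor, IL1R1, and signal through MYD88 and IRAK kinases to NF-kB. IL1RN occupies that receptor without signalling, and IL1R2 is a decoy. IL-1α is active as made and acts as an alarm signal when cells are damaged, whereas pro-IL-1β and pro-IL-18 are cut by caspase-1 in inflammasomes. IL-33 is a nuclear alarmin of stromal cells that acts on IL1RL1 (ST2). TNF signals through TNFR1 (Tnfrsf1a), which is broadly expressed, and TNFR2 (Tnfrsf1b), which is more restricted and common on immune cells. In injured peripheral nerves, these cytokines are known as early signals of Wallerian degeneration and macrophage recruitment.

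Il1a and Il1b are neighbours on the minus strand of chromosome 2 (GRCm38), where Il1a spans 129299610 to 129309972 and Il1b spans 129364570 to 129371139, with 54597 bases between them. The promoters of Il1a, Il1b and Tnf, the ligands whose counts the comparisons turn on, and of the receptor Tnfrsf1a as a contrast, are shown from 250 bases before to 50 bases from the RefSeq start site on (RefSeq, GRCm38.p6), 5′ to 3′ along the gene's strand. Capitals mark TATAAA, the TATA box.
Il1a, chr2:129309923-129310222, minus strand: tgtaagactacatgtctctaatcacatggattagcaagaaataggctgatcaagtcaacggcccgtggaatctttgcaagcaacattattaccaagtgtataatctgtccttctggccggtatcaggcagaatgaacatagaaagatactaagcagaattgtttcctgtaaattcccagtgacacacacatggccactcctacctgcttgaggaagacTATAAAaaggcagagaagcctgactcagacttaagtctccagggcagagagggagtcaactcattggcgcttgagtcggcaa
Il1b, chr2:129371090-129371389, minus strand: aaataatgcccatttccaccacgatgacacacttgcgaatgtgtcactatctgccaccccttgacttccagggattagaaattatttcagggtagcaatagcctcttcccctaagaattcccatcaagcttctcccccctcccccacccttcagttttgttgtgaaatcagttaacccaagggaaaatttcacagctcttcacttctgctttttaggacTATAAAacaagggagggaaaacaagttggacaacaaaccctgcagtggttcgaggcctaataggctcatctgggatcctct
Tnf, chr17:35201958-35202257, minus strand: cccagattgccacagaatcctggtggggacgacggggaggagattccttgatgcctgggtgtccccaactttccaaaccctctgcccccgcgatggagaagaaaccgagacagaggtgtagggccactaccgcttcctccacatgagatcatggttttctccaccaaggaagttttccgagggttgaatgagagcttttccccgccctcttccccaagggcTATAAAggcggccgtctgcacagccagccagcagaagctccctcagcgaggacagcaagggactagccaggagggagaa
Tnfrsf1a, chr6:125349473-125349772, plus strand: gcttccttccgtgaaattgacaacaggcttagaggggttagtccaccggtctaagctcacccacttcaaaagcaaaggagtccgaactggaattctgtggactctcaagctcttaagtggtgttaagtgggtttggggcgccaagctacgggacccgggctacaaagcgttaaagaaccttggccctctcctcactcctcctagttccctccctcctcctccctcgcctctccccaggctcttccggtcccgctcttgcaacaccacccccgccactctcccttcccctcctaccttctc
The TATA box began at -32 in Il1a, -31 in Il1b and -29 in Tnf, counted from the start site. TATAAA on either strand was present in at least one promoter of 6 of 10 members (Il18, Il1a, Il1b, Il1rn, Il33 and Tnf) and in 13.6% of 32817 mouse promoters of the same length, a share counted per promoter although Il1rn, Il33 and Il1r1 have several. No promoter of the receptors Il1r1, Il1r2, Tnfrsf1a and Tnfrsf1b held it. The 6 matches were not alike in place. Il33 had one at -29 in its downstream promoter and one at -203 in the other. In Il18 and Il1rn the match was on the opposite strand, at -175 and at 14, away from the positions in Il1a, Il1b and Tnf. The AP-1 motif TGANTCA was found in Il1a, where it began at -12 as TGACTCA, and in the upstream promoter of Il1rn, against 7.81% of all promoters. Il1b and Tnf held no AP-1 match in these windows. The NF-kB consensus matched 1 of 10 members, at a downstream promoter of Il1r1, against 8.46% of all promoters. The C/EBP motif TTNNGNAA matched 6 members (40.7% of all promoters) and the PU.1 core GAGGAA matched 4 members (28.3%), and in Il1a these 2 matches overlapped each other. A match describes letters in a window and says nothing of binding in the nerve.

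**Figure D1:**
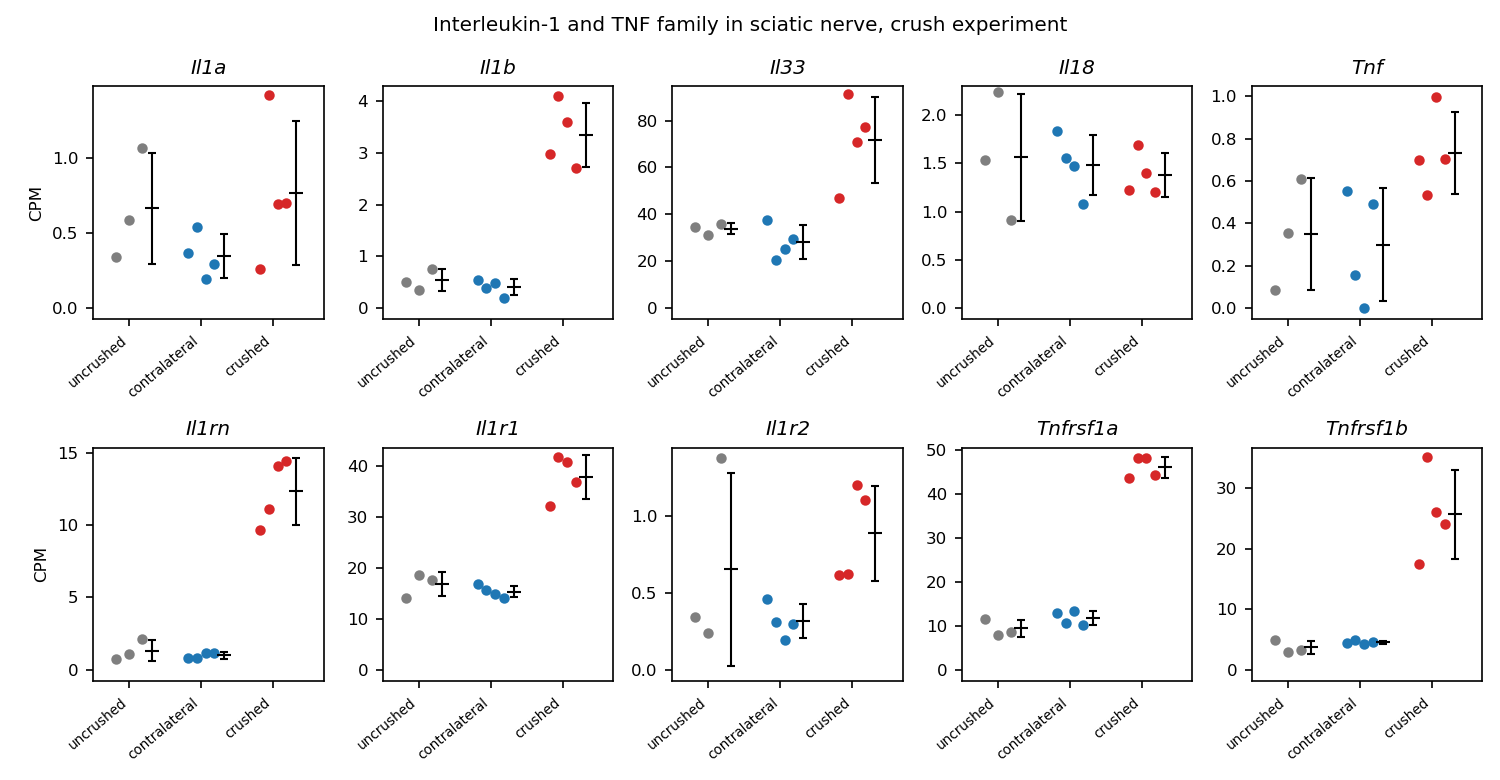
CPM of the 10 members in each library of the crush experiment. Points are libraries, bars give the mean and SD of each group (n = 3 uncrushed, 4 contralateral, 4 crushed), and each panel has its own axis; crushed nerves lie above all others for Il1b, Il33, Il1rn, Il1r1, Tnfrsf1a and Tnfrsf1b.

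The first question was which members of the family change in the nerve at 3 dpc. Il1b, the antagonist Il1rn and both TNF receptors were raised several fold in crushed nerves, Il1r1 and Il33 were raised about 2-fold, and Il1a, Tnf and Il18 were not called. Of the 10 members, 8 passed the filter on low counts against uncrushed nerves and 5 of these were called higher, with none lower, by edgeR's quasi-likelihood test (fold change of at least 2 and Benjamini-Hochberg adjusted p of at most 0.05), beside 36.5% of all 17433 genes tested (15.3% higher). Against contralateral nerves, 7 members passed and 6 were called higher, with none lower, beside 28.3% of 16667 genes (14.6% higher). The comparisons share the crushed libraries. Il1b and Il1rn passed the filter only through the crushed libraries, so their entry into these counts and their direction are not independent. For them the lack of lower calls carries no weight. Of all genes tested, 37.3% were higher in every crushed than in every uncrushed library, and 35.5% than in every contralateral library.

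Il1b was at 2.97, 4.09, 3.60 and 2.71 CPM in crushed nerves, at 0.551, 0.389, 0.489 and 0.197 CPM in contralateral nerves and at 0.513, 0.353 and 0.763 CPM in uncrushed nerves. Every crushed library was above every other library. The log2 fold change was 2.86 (standard error, SE, 0.30 and adjusted p = 1.05e-06) against contralateral and 2.52 (SE 0.34, adjusted p = 3.52e-05) against uncrushed nerves, from 27 to 46 counts per crushed library. Il1a, its neighbour, stayed near the limit of detection: its crushed libraries held 3, 16, 7 and 7 counts, contralateral libraries 4, 7, 2 and 3, and uncrushed libraries 4, 5 and 7. These ranges overlapped, and Il1a did not pass the filter in any comparison of 2 groups. Without the filter, its log2 fold change was 1.10 (SE 0.53, adjusted p = 0.122) against contralateral and 0.42 (SE 0.55, adjusted p = 0.591) against uncrushed nerves, so a change of Il1a was not detectable at this depth.

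Tnf was equally sparse. Crushed libraries held 8, 6, 10 and 7 counts, contralateral libraries 6, 2, 0 and 5, and uncrushed libraries 1, 3 and 4. In CPM, the crushed range of 0.534 to 0.999 overlapped the contralateral and uncrushed ranges, and the log2 fold changes without the filter, 1.30 against contralateral (SE 0.57, adjusted p = 0.0796) and 1.31 against uncrushed nerves (SE 0.65, adjusted p = 0.107), were not called. Il18 averaged 1.38 ± 0.225 CPM (SD, n = 4) after crush, 1.49 ± 0.311 CPM (n = 4) on the contralateral side and 1.56 ± 0.660 CPM (n = 3) without injury. Its log2 fold change was -0.25 against contralateral (adjusted p = 0.414) and -0.32 against uncrushed nerves (adjusted p = 0.409).

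Il33 had the highest TPM of the family in all 7 groups. It was at 47.1, 91.2, 70.9 and 77.2 CPM in crushed nerves, at 37.5, 20.7, 25.2 and 29.5 CPM in contralateral nerves and at 34.6, 31.3 and 35.7 CPM in uncrushed nerves. All crushed libraries lay above all others, the first crushed library closest to them. The log2 fold change of 1.21 (SE 0.19, adjusted p = 5.34e-05) against contralateral nerves was called, and the value of 0.96 (SE 0.18, adjusted p = 0.000538) against uncrushed nerves passed the adjusted p but lay just under the fold limit. Without the first crushed library the latter was 1.09, without the first or the third uncrushed library 1.01 and 1.02, and Il33 was called in each case.

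Il1rn, the receptor antagonist, showed the largest change of the family after crush. It was at 9.62, 11.1, 14.1 and 14.4 CPM in crushed nerves, against 0.827, 0.778, 1.18 and 1.18 CPM in contralateral and 0.769, 1.06 and 2.14 CPM in uncrushed nerves. The groups did not overlap. Its log2 fold change was 3.50 (SE 0.22, adjusted p = 4.07e-09) against contralateral and 3.20 (SE 0.30, adjusted p = 1.90e-06) against uncrushed nerves. Thus agonist and antagonist of the IL-1 receptor were both higher at 3 dpc, with 520 counts of Il1rn and 143 counts of Il1b summed over the 4 crushed libraries.

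Among receptors, Il1r1 was at 32.3, 41.8, 40.8 and 36.9 CPM in crushed nerves, above the contralateral range of 14.1 to 16.8 CPM and the uncrushed range of 14.2 to 18.7 CPM. The log2 fold change was 1.16 (SE 0.10, adjusted p = 9.96e-08) against contralateral and 1.06 (SE 0.13, adjusted p = 1.37e-05) against uncrushed nerves, and the latter lay under the fold limit without the first uncrushed library (0.98), with at least 10 counts required in every sample (0.95) and with all groups in one fit (0.96). The decoy Il1r2 held 7, 7, 12 and 11 counts in crushed nerves, 5, 4, 2 and 3 in contralateral and 4, 2 and 9 in uncrushed nerves. Its crushed values exceeded the contralateral ones but overlapped the uncrushed ones. The log2 fold change was 0.46 (SE 0.58, adjusted p = 0.493) against uncrushed nerves. Against contralateral nerves it was tested only without the filter, where it was called at 1.46 (SE 0.52, adjusted p = 0.0220). The value without the filter against uncrushed nerves was 0.68 (SE 0.54, adjusted p = 0.353). Dropping the filter raised the median of all genes by 0.16 against contralateral and 0.23 against uncrushed nerves.

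Tnfrsf1a was at 43.7, 48.3, 48.2 and 44.5 CPM in crushed nerves, at 10.2 to 13.4 CPM in contralateral and at 8.0 to 11.6 CPM in uncrushed nerves, with log2 fold changes of 1.84 (SE 0.10, adjusted p = 7.09e-10) and 2.15 (SE 0.13, adjusted p = 3.31e-08). Tnfrsf1b was at 17.4, 35.0, 26.0 and 24.1 CPM in crushed nerves, at 4.21 to 4.82 CPM in contralateral and at 2.94 to 4.96 CPM in uncrushed nerves, with log2 fold changes of 2.36 (SE 0.18, adjusted p = 3.68e-08) and 2.62 (SE 0.25, adjusted p = 1.99e-06). Neither receptor overlapped between crushed and other nerves, so the receptors of TNF rose in libraries in which the ligand was barely counted.

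Between contralateral and uncrushed nerves, 6 members passed the filter, their log2 fold changes ran from -0.42 to 0.22 and their adjusted p from 0.319 to 0.826. No member was called, beside 0% of 17722 genes, although 3165 genes had an unadjusted p under 0.05 and other tests called 20 (DESeq2) and 177 (edgeR's exact test), none of them members.

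In whole nerve, more cells of a type and more RNA per cell cannot be told apart. After crush, 8 of 9 macrophage markers were called higher against contralateral nerves, and their summed level was 506 to 882 CPM in crushed, 88.5 to 166 CPM in contralateral and 136 to 141 CPM in uncrushed nerves, with no marker at 0. The 8 neutrophil markers summed to 40.9 to 54.1 CPM in crushed, 23.6 to 33.7 CPM in contralateral and 34.8 to 47.6 CPM in uncrushed nerves. Elane was at 0 in all crushed libraries and Retnlg in all contralateral libraries. Of 3 markers tested, 2 were called higher against contralateral nerves, and 1 higher and 1 lower against uncrushed nerves. The 7 SC markers fell to 1961 to 2981 CPM from 31771 to 42280 CPM in contralateral nerves, with 6 of 7 called lower. Their part in the changes of the family was not tested.

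**Figure D2:**
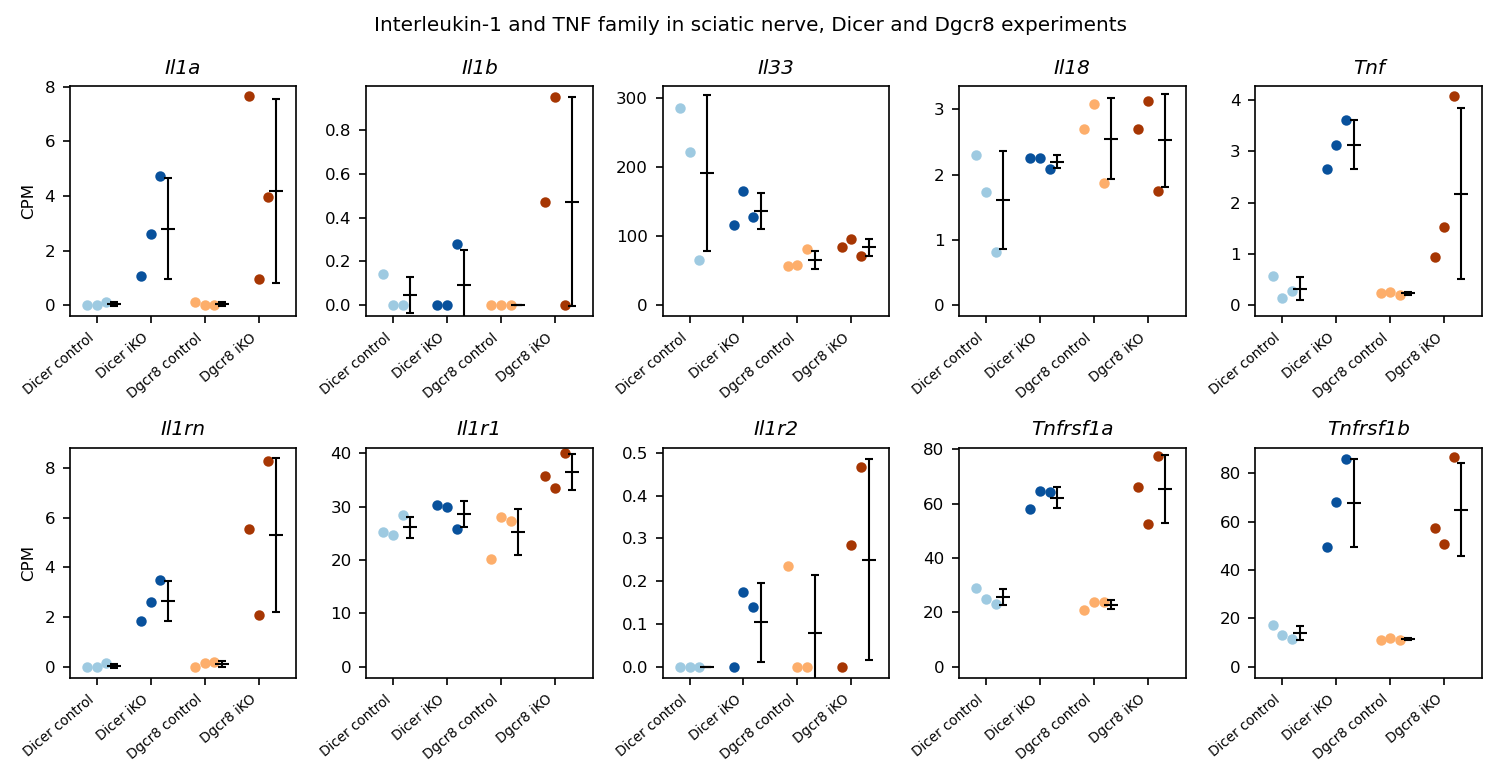
CPM of the 10 members in each library of the Dicer and Dgcr8 experiments at 3 mpT. Points are libraries, bars give the mean and SD of each group (n = 3), and each panel has its own axis; both mutants lie above their controls for Il1a, Tnf, Il1rn, Tnfrsf1a and Tnfrsf1b.

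The next question was whether loss of Dicer or Dgcr8 in adult SCs, without a crush, changes the same genes. In both mutants Il1a, Tnf, Il1rn, Tnfrsf1a and Tnfrsf1b were higher in every mutant library than in every control library, as were 21.7% of all genes tested in Dicer iKO and 29.1% in Dgcr8 iKO, while Il1b was at or near 0 in Dicer iKO. By the filtered test, 7 members were tested in Dicer iKO and 4 were called higher, with none lower, beside 9.01% of 13045 genes (7.37% higher). In Dgcr8 iKO, 6 members were tested and 3 were called higher, with none lower, beside 20.4% of 13252 genes (13.4% higher). Tnf and Il1rn in Dicer iKO, and Il1rn in Dgcr8 iKO, passed the filter only through the mutant libraries. For such sparse members the filter and the direction of the call are not independent, so the lack of lower calls carries no weight there. Without the filter, 5 members were called higher in Dicer iKO, beside 5.7% of 17122 genes, and 6 in Dgcr8 iKO, beside 10.9% of 18321 genes.

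Il1a held 8, 15 and 34 counts in Dicer iKO against 0, 0 and 1 in its controls, and 65, 10 and 34 counts in Dgcr8 iKO against 1, 0 and 0. In CPM this was 1.06, 2.61 and 4.73 in Dicer iKO and 7.65, 0.949 and 3.96 in Dgcr8 iKO. All 6 mutant libraries lay above all 6 control libraries, with a spread of several fold among mutants. With a single count in each set of controls, the ratio of scaled counts was 60.7 in Dicer iKO (95% interval 10.5 to 2439) and 101 in Dgcr8 iKO (17.7 to 4024), the exact intervals covering counting error only. Il1a was called higher by the test without the filter in both lines (adjusted p = 0.00844 and 5.2e-06).

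Il1b gave another picture. Dicer iKO libraries held 0, 0 and 2 counts and their controls 1, 0 and 0, which left no detectable difference. Dgcr8 iKO libraries held 4, 10 and 0 counts and their controls none. The ratio of the 14 summed counts to the 0 of the controls had a lower 95% limit of 3.07 (exact, counting error only), but the mutant library at 0 overlapped the controls, and the call made without the filter (adjusted p = 0.0293) rests on the other 2 libraries. Summed over libraries, in Dicer iKO 57 counts of Il1a stood beside 2 of Il1b, in Dgcr8 iKO 109 beside 14, and in crushed nerves 33 beside 143. These are raw counts of genes of unlike length, from experiments that differ in labelled kit and depth. Their proportions were not tested.

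**Figure D3:**
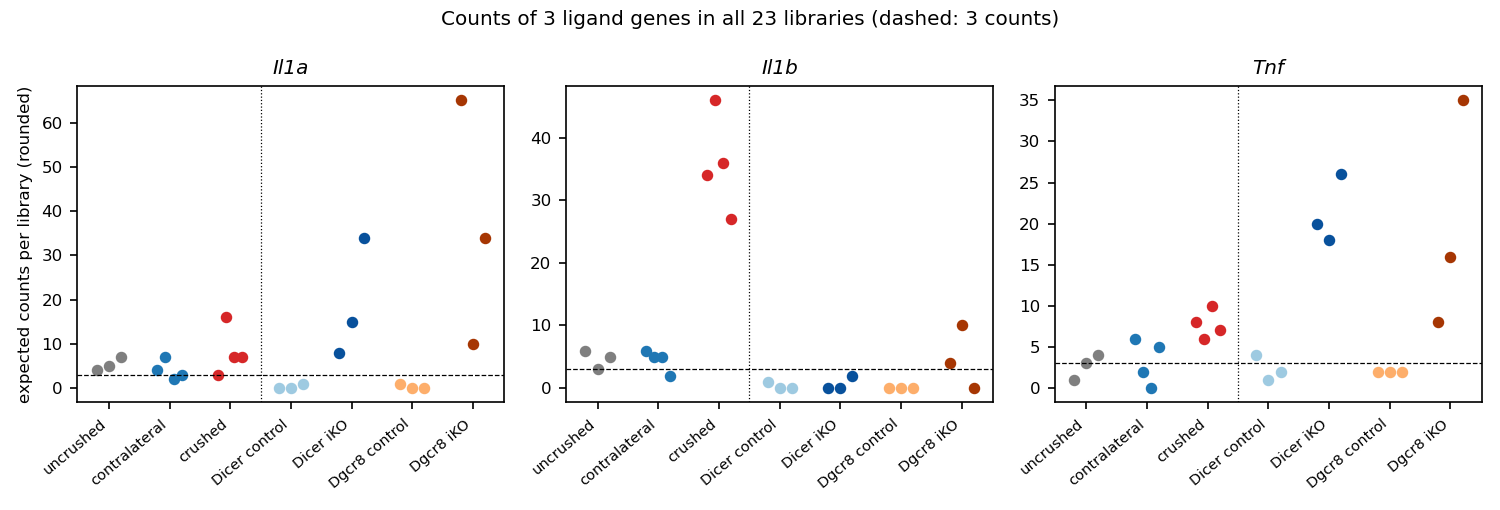
Rounded expected counts of Il1a, Il1b and Tnf in all 23 libraries, with the crush experiment left and the mutant experiments right of the dotted line. The dashed line marks 3 counts; Il1b reaches 27 to 46 counts in crushed nerves alone, whereas the highest counts of Il1a (65) and Tnf (35) are in Dgcr8 iKO.

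Tnf was at 2.65, 3.13 and 3.62 CPM in Dicer iKO and at 0.574, 0.134 and 0.271 CPM in its controls. The groups were apart by several fold, and the log2 fold change was 3.22 (SE 0.50, adjusted p = 0.00591). In Dgcr8 iKO it was at 0.941, 1.52 and 4.08 CPM, against 0.208 to 0.268 CPM in controls. Each mutant library was again above each control, but the gene did not pass the filter, and its log2 fold change without it was 3.12 (SE 0.70, adjusted p = 0.000954).

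Il33 did not follow the other ligands. In Dicer iKO it was at 116, 165 and 127 CPM, within the range of its controls, which were at 286, 222 and 65.6 CPM and spread more than any mutant group. The log2 fold change was -0.49 (SE 0.45, adjusted p = 0.476). The order of the 3 Dicer controls was shared by the fibroblast markers (14752, 11093 and 4578 CPM summed over 6 genes) and the macrophage markers (594, 465 and 235 CPM). The mast cell markers (211, 120 and 42.5 CPM) and the T cell markers (2.30, 0.802 and 0.679 CPM) shared it too. SC markers (23286, 29521 and 37658 CPM) and endothelial markers (333, 336 and 384 CPM) ran in the reverse order. Neutrophil, adipocyte, skeletal muscle and keratinocyte markers followed neither order. The part of these cell types in the spread of Il33 was not tested. In Dgcr8 iKO, Il33 was at 83.8, 96.6 and 70.9 CPM against 57.2, 58.2 and 80.8 CPM, which overlapped (log2 fold change 0.35, SE 0.16, adjusted p = 0.103). Il18 was at 2.20 ± 0.0974 CPM (SD, n = 3) in Dicer iKO and 1.62 ± 0.749 CPM in its controls, and at 2.53 ± 0.709 and 2.55 ± 0.621 CPM in the Dgcr8 groups, with adjusted p of 0.476 and 0.995.

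Il1rn was nearly absent from control nerves, with 0, 0 and 1 counts in Dicer controls and 0, 1 and 2 counts in Dgcr8 controls. In Dicer iKO it held 14, 15 and 25 counts and in Dgcr8 iKO 47, 22 and 71. No control overlapped a mutant, and the ratio of scaled counts was 57.5 (95% interval 9.89 to 2313) and 43.2 (14.5 to 212). It was called in both lines (adjusted p = 0.00479 and 0.000249), and its fitted log2 fold changes of 5.39 and 5.32 depend on the prior count of the fit. So the antagonist rose in crushed nerves and in both mutants.

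Tnfrsf1a was at 57.8, 64.5 and 64.3 CPM in Dicer iKO against 29.0, 25.0 and 23 CPM, and at 66.0, 52.4 and 77.3 CPM in Dgcr8 iKO against 20.8, 23.9 and 23.8 CPM. The log2 fold changes were 1.28 (SE 0.12, adjusted p = 0.00167) and 1.51 (SE 0.16, adjusted p = 3.12e-05). Tnfrsf1b was at 49.6, 68.0 and 85.9 CPM in Dicer iKO against 17.1, 13.2 and 11.5 CPM, and at 57.3, 50.8 and 86.8 CPM in Dgcr8 iKO against 11.2, 12.1 and 11.2 CPM. Both receptors were clear of their controls, with log2 fold changes of Tnfrsf1b of 2.28 (SE 0.23, adjusted p = 0.00214) and 2.49 (SE 0.20, adjusted p = 6.96e-06).

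The signalling IL-1 receptor moved less. Il1r1 was at 30.2, 29.9 and 25.8 CPM in Dicer iKO against 25.3, 24.7 and 28.4 CPM, which overlapped (log2 fold change 0.14, SE 0.12, adjusted p = 0.456). In Dgcr8 iKO it was at 35.7, 33.5 and 40.1 CPM against 20.2, 28.0 and 27.3 CPM, without overlap, and its log2 fold change of 0.53 (SE 0.15, adjusted p = 0.0157) passed the adjusted p at under 2-fold. Il1r2 held at most 4 counts in any mutant or control library, and no difference was detectable.

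In the mutants, macrophage markers summed to 814 to 1060 CPM in Dicer iKO (controls 235 to 594 CPM, 5 of 9 called higher) and to 514 to 949 CPM in Dgcr8 iKO (controls 236 to 291 CPM, 6 of 9 higher and 1 lower). T cell markers summed to 11.3 to 27.4 CPM in Dicer iKO (controls 0.679 to 2.30 CPM) and to 18.4 to 26.6 CPM in Dgcr8 iKO (controls 0.519 to 1.07 CPM), but to 1.93 to 3.65 CPM in crushed nerves, with Trbc2 at 0, beside 2.41 to 6.87 CPM in the other crush groups. Neutrophil markers summed to 39.2 to 46.5 CPM in Dicer iKO (controls 25.8 to 41.9 CPM, 1 of 2 tested higher) and to 25.1 to 36.6 CPM in Dgcr8 iKO (controls 28.2 to 62.7 CPM, 2 of 3 tested higher and 1 lower). Ly6g, Mpo and Elane were at 0 in all 6 mutant libraries. Of these, Ly6g was also at 0 in all 6 controls, Mpo in the Dicer controls and Elane in the Dgcr8 controls. Retnlg went the other way, at 0 in all 6 controls and in neither mutant group. S100a9 was at 0 in Dicer iKO and in the Dgcr8 controls. Fibroblast markers summed to 19351 to 20653 CPM in Dicer iKO (controls 4578 to 14752 CPM, 3 of 6 higher) and to 14430 to 17398 CPM in Dgcr8 iKO (controls 6044 to 7896 CPM, 4 of 6 higher). Mast cell markers summed to 250.3 to 341 CPM in Dicer iKO (controls 42.5 to 211 CPM, none of 5 called) and to 89.9 to 128 CPM in Dgcr8 iKO (controls 16.2 to 55.6 CPM, 4 of 5 higher). SC markers summed to 17686 to 21033 CPM in Dicer iKO (controls 23286 to 37658 CPM, none of 7 called) and to 11454 to 21234 CPM in Dgcr8 iKO (controls 32045 to 35345 CPM, 3 of 7 lower). Their part in the changes of the family was not tested.

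The effects of the mutants were then compared directly. No member differed between the Dgcr8 iKO effect and the Dicer iKO effect among 8 tested, with adjusted p of 0.415 or more, beside 0.0148% of 13552 genes (2 genes, with 1861 at an unadjusted p under 0.05). DESeq2 called 235 genes, and none of them was a member. The difference for Il33 was 0.84 (SE 0.53, adjusted p = 0.505), and without the third Dicer control, the library lowest in Il33, it was 1.25 (adjusted p = 0.0251).

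**Figure D4:**
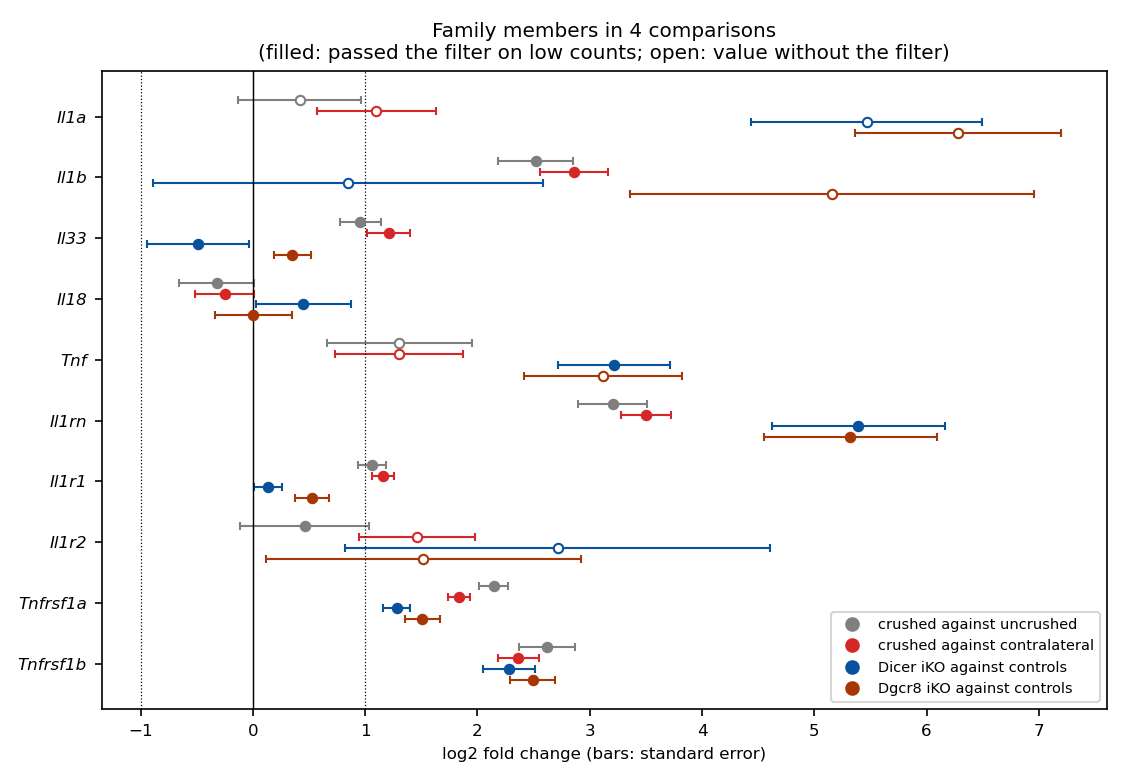
Log2 fold changes of the 10 members with standard errors in 4 comparisons; filled symbols passed the filter on low counts, open symbols are values of the fit without it, and dotted lines mark a 2-fold change. Without the filter, Il1a lies at 0.42 and 1.10 after crush and at 5.47 and 6.28 in the mutants, while with the filter Tnfrsf1b lies between 2.28 and 2.62 in all 4 comparisons.

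Crush and mutant effects were compared on the log2 scale, in a fit added after the data were seen, against contralateral nerves and the mutants' own controls. The experiments differ in labelled kit, sex, time and treatment, which cannot be told apart from the effects compared. The Il1a effect was lower in the crush than in Dicer iKO by 4.47 (SE 1.26, adjusted p = 0.0103) and than in Dgcr8 iKO by 5.23 (SE 1.40, adjusted p = 0.00709), and these values depend on the prior count since each set of controls held 1 count. The Il1b effect was not shown to differ, at 2.06 (SE 2.05, adjusted p = 0.490) and -2.16 (SE 1.43, adjusted p = 0.272), nor was the Tnf effect, at -2.01 (SE 0.88, adjusted p = 0.0898) and -1.90 (SE 1.03, adjusted p = 0.169).

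The Il33 effect was higher after crush than in either mutant, where Il33 was not called. The differences were 1.76 (SE 0.48, adjusted p = 0.00896) for Dicer and 0.94 (SE 0.28, adjusted p = 0.0144) for Dgcr8. The Il1r1 effect was likewise higher after crush, by 1.11 (SE 0.16, adjusted p = 3.44e-05) and 0.72 (SE 0.17, adjusted p = 0.00306). With uncrushed in place of contralateral nerves the Il33 difference from Dgcr8 iKO was 0.67 (adjusted p = 0.0550), and it was also lost without the third Dgcr8 control (0.76) or the third crushed library (0.75). The Tnfrsf1a effect was larger by 0.63 than in Dicer iKO (SE 0.15, adjusted p = 0.00267). Its difference from Dgcr8 iKO, 0.41 (SE 0.18, adjusted p = 0.0865), was not called, but was called with uncrushed nerves in place of contralateral ones (0.70, adjusted p = 0.0140) and without the third Dgcr8 iKO library (0.56, adjusted p = 0.0149). The remaining 4 members were not called in either comparison, with adjusted p from 0.122 to 0.956. Of all genes, 36.3% of 16190 and 34.2% of 16403 were called.

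Levels were ordered within groups by TPM, which scales counts by transcript length and library size. Il33 was first and Tnfrsf1a second in all 7 groups. In contralateral nerves Il33 was at 2.04 ± 0.518 TPM (SD, n = 4), Tnfrsf1a at 0.867 ± 0.123, Il1r1 at 0.530 ± 0.0779 and Il18 at 0.367 ± 0.0846 TPM, and Il1r1 overlapped Il18. The other members had means of 0.178 TPM or less there. In crushed nerves the order was Il33 (6.11 ± 1.76 TPM), Tnfrsf1a (3.83 ± 0.786), Il1rn (2.42 ± 1.05), Tnfrsf1b (1.35 ± 0.570), Il1r1 (1.28 ± 0.325) and Il1b (0.557 ± 0.186), where each of the first 4 overlapped the next and Il1r1 lay clear of Il1b. Il1rn thus took the third place here and the seventh in contralateral nerves. A single short ribosomal transcript took 61.4% to 71.8% of all TPM in crush libraries, so these TPM are not set against those of the mutants.

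In Dicer iKO, Il33 was at 118 ± 25.4 TPM (SD, n = 3), Tnfrsf1a at 63.2 ± 4.16, Tnfrsf1b at 36.3 ± 9.87, Il1r1 at 11.9 ± 1.12 and Il18 at 8.11 ± 0.380 TPM, none of which overlapped the next. They were followed by Il1rn (5.22 ± 1.30), Tnf (4.17 ± 0.677) and Il1a (3.04 ± 2.0 TPM), which overlapped their neighbours. In Dgcr8 iKO the same 5 led, at 71.5 ± 13.7, 65.7 ± 9.48, 34.7 ± 9.10, 15.1 ± 0.919 and 9.56 ± 2.99 TPM, and Il33 and Tnfrsf1a overlapped. In the controls of both lines Tnfrsf1b lay below Il1r1, at 7.14 ± 1.21 against 10.4 ± 0.951 TPM for Dicer and 6.46 ± 0.536 against 9.34 ± 1.56 TPM for Dgcr8. The order of TNFR2 and the IL-1 receptor thus differed between controls and mutants of both lines.

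Other genes of the pathway were followed as 4 lists. Of 19 genes that carry or limit IL-1 and IL-18 signals, 18 were tested against contralateral nerves. Of these, 9 were called higher and 0 lower, beside 14.6% higher and 13.6% lower of all genes. The median log2 fold change was 0.90 beside -0.06 over all genes. Pycard, the inflammasome adaptor, had a log2 fold change of 2.40 (8.36 ± 2.29 against 1.42 ± 0.240 CPM), Irak3, an inhibitory kinase homologue, 1.84, and the adaptor Myd88 1.67. At the other end of the called genes stood the sensor Nlrp3 (1.57), the kinase Irak4 (1.36) and the IL-36 receptor Il1rl2 (1.05, and 0.94 or 0.90, not called, without the fourth contralateral or the second crushed library). In Dicer iKO 5 of 18 and in Dgcr8 iKO 6 of 19 were called higher and none lower, beside 7.37% and 13.4% higher of all genes. The medians were 0.47 and 0.88 beside -0.01 and -0.01. Pycard (1.68 and 2.29), Irak4 (1.16 and 1.17) and Il1rl2 (1.21 and 1.64) were called in both lines, whereas Nlrp3 was called in neither (adjusted p = 0.468 and 0.557).

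Of 18 TNF pathway genes, 16 were tested against contralateral nerves, with 3 called higher and 2 lower (median 0.48). These counts are near the shares of all genes (14.6% higher and 13.6% lower). Against uncrushed nerves, 5 of 16 were called higher and 1 lower, beside 15.3% higher and 21.1% lower of all genes. The apoptosis and signalling protease Casp8 was highest, at 40.8 ± 5.13 against 6.39 ± 1.38 CPM (log2 fold change 2.53), followed by the receptor adaptor Tradd (1.31) and the caspase-8 inhibitor Cflar (1.01, and 0.96 to 0.996, not called, without the fourth contralateral or the first, second or the third crushed library). The NF-kB feedback inhibitor Tnfaip3 (A20) and the adaptor Traf1 were lower, by -1.14 and -1.52. Tnfaip3 was not called without the filter (-0.97) or against uncrushed nerves (-0.95). In Dicer iKO 2 of 16 and in Dgcr8 iKO 3 of 17 were called higher and none lower, beside 7.37% and 13.4% higher of all genes. Casp8 was among them in both lines (1.01 and 1.30), while Tnfaip3 (0.29 and -0.15) and Traf1 (0.00 and -0.50) were not called.

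Of 13 NF-kB factors and inhibitors, 2 were called higher and 1 lower against contralateral nerves (median 0.57), near the shares of all genes (14.6% higher and 13.6% lower), and 3 higher and 0 lower against uncrushed nerves. Bcl3, a nuclear IkB protein, had a log2 fold change of 2.03, the IKK subunit Ikbkg (NEMO) 1.08 the inhibitor Nfkbib -1.28 (-0.95, not called, against uncrushed nerves). In Dicer iKO 0 of 13 were called, 5 passing the adjusted p at under 2-fold. In Dgcr8 iKO 3 of 13 were called higher, among them Bcl3 (1.97), beside 13.4% higher of all genes. DESeq2 and edgeR's exact test each called 1 NF-kB gene in Dicer iKO.

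Of 12 inflammatory target genes, 8 were tested against contralateral nerves, 5 called higher and 0 lower (median 3.14), beside 14.6% higher and 13.6% lower of all genes. The monocyte chemokine Ccl2 was at 67.8 ± 7.61 CPM in crushed and 2.26 ± 1.24 CPM in contralateral nerves (log2 fold change 4.81), and the protease Mmp9 (4.47), the chemokines Ccl7 (4.14) and Cxcl1 (3.79) and the adhesion molecule Icam1 (2.49) were also higher. Mmp9, Ccl7 and Cxcl1 averaged 0.743, 0.993 and 0.139 CPM in contralateral nerves and passed the filter only through the crushed libraries. For these genes the filter and the direction of the call are not independent, and they enter the median above. In Dicer iKO and in Dgcr8 iKO, 4 of 8 were called higher and 1 lower, beside 7.37% and 13.4% higher of all genes. Ccl2 (2.80 and 4.20) and Ccl7 (1.82 and 2.13) were higher in both lines. In Dicer iKO, the calls of Ccl7, Casp8 and Il1rl2 were each lost without the second control (1.97, 1.06 and 1.09), the second mutant (1.87, 0.99 and 1.34) or the third mutant (2.02, 1.02 and 0.94), Casp8 also without the third control (0.78) and Ccl7 without the first mutant (1.57). Mmp9 was the gene called lower, at 0.905 ± 0.283 against 5.95 ± 3.31 CPM in Dicer iKO, a log2 fold change of -2.71 with an adjusted p of 0.0173. In Dgcr8 iKO it was at 2.86 ± 0.512 against 6.48 ± 2.71 CPM, a log2 fold change of -1.19 with an adjusted p of 0.0161. The call of Mmp9 was lost without any of several single libraries, so that no target was called lower in Dicer iKO without the second control, the second mutant or the third mutant, or in Dgcr8 iKO without the first control, the third control or the first mutant.

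For the 6 members with a mean of at least 1 CPM in both experiments, which leaves out Il1a, Il1b, Tnf and Il1r2, the genes most like each over the 7 groups were found by the root mean square difference of group means of log2(CPM + 1), centred within experiments, among 12642 genes. They were Foxc2 (0.107) and Atp2a3 (0.130) for Il33, Stat4 (0.0307) and Yrdc (0.0530) for Il1r1, Cmtm3 (0.0427) and Edem1 (0.0678) for Tnfrsf1a, Tmem86a (0.0957) and Apobec1 (0.101) for Tnfrsf1b, Gtse1 (0.0987) and Panx1 (0.101) for Il1rn, and Lrrc8d (0.0406) and Mettl23 (0.0445) for Il18. The median difference to all genes was 0.316 for Il18 and 0.413 to 1.11 for the others. The points share libraries and depth, and no test was made.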

How the data were processed

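RNA was extracted from whole SNs and sequenced as ribosome-depleted total RNA. According to the labels, the crush libraries were made with a low-input SMARTer stranded kit and the mutant libraries with TruSeq Stranded, while the methods name TruSeq for all. Reads were trimmed with Trimmomatic, aligned with STAR and quantified with RSEM on Ensembl GRCm38 by the authors, who deposited expected counts, TPM and FPKM per transcript; FPKM and the posterior columns were not used. For each gene, the deposited expected counts of its transcripts were added up and rounded, and the deposited TPM added up. Gene IDs were matched to GRCm38 symbols for 42365 of 43068 (crush) and 22570 of 22880 (mutants) genes. Il1a and Il1b overlap exons of antisense genes (Gm14023 and Il1bos), and the strand setting of the counting is not given in the sources used here.

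Comparisons of 2 groups were fitted with edgeR 4.0.16 in R 4.3.3 (TMM, filterByExpr with a minimum count of 10, glmQLFit and glmQLFTest, Benjamini-Hochberg adjustment over all genes tested), and called at an adjusted p of at most 0.05 and a fold change of at least 2; comparisons of effects were called at the adjusted p alone. SE was taken as the size of the log2 fold change over the square root of F. The crush and mutant effects were compared over genes in both kinds of file with a minimum count of 5. The scripts were tested on simulated data. The floor was 3 counts, or 0.234 to 0.536 CPM per library. Intervals and floors cover counting error only.

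The labels name the groups; one uncrushed library is replicate 3 by title and 4 by description. By the methods, the uninjured nerve on the other side was taken from injured mice and handled beside the crushed nerve, with 4 nerves sequenced of each kind. Crushed and contralateral libraries thus most likely come from the same mice. The labels do not say which libraries share a mouse, and p-values of that comparison leave out this pairing and treat the nerves as separate. Members and lists were chosen with earlier results of these data known; the named genes were the 10 members, the 3 highest and 3 lowest called genes of each list against contralateral nerves, and the 2 nearest genes by pattern. Alternatives were RLE scaling, other filters on low counts, a replicate block, DESeq2 1.42.0, edgeR's exact test, all groups in one fit, the adjusted p alone, and each library left out.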

Additional observations from a re-analysis of the deposited data

How the results depend on the processing

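Of 270 recomputed counts of members called, 255 stayed within 1.5 times the reported count. With at least 10 counts in every sample, which removes sparse members such as Il1b and Il1rn and takes Il1r1 under the fold limit (0.95), 2 members were called higher against uncrushed nerves and 2 in Dicer iKO, and 0 had a lower effect after crush than in Dicer iKO or Dgcr8 iKO. In Dgcr8 iKO, the count of 3 became 6 with no filter, 5 with all groups in one fit and 5 with a minimum count of 5 (added after the data were seen). Leaving out a library gave 3 to 5 in Dgcr8 iKO, with 5 without any of its 3 controls. It gave 0 to 1 for Dgcr8 against Dicer effects, 1 to 2 for lower effects after crush than in Dicer iKO, and 1 to 3 higher and 1 to 2 lower for crush against Dgcr8 iKO. The libraries behind these were the third Dicer control, the third contralateral nerve, the third Dgcr8 control, the second and the third Dgcr8 iKO and the third crushed nerve. Il18 changed sign, never called: in Dgcr8 iKO it was -0.00378 with no filter, -0.00457 by DESeq2, -0.0253 with the replicate block, -0.000795 with all groups in one fit and -0.20 to 0.21 without a library, and against uncrushed nerves -0.52 to 0.0212, the latter without the second uncrushed nerve.

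Same-numbered libraries did not deviate together (mean correlations of -0.0598 to 0.0527), and the labels do not say whether a number marks a shared animal. With the replicate block the counts of members stayed within 1.5 times in every comparison, with 6 called higher against contralateral nerves as without it. In Dicer iKO the block moved all calls from 1175 to 640, the IL-1 and IL-18 list from 5 to 3 and the TNF list from 2 to 1, and ended the calls of Il1rl2 (adjusted p = 0.0674), Casp1 (0.0668) and Casp8 (0.0590). Without the second Dicer control, the second Dicer iKO or the third Dicer iKO, they were 704, 623 and 572. RLE scaling moved the median of all genes by -0.12 in crush against Dgcr8 effects and the share of higher among called genes from 59.3% to 47.5%; without the third crushed nerve the shift was -0.20 and the share 39.2%. Dropping the filter raised the median of all genes by 0.23 against uncrushed and 0.16 against contralateral nerves. Depth limits Il1a, Il1b, Tnf and Il1r2 most.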

Other observations

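Il33 reads were shared by RSEM among 5 transcripts, of which ENSMUST00000120388 (2537 bases) took most in every group, from 73.0% of the gene's counts in Dicer controls to 94.6% in Dgcr8 iKO. A second transcript of nearly the same length, ENSMUST00000025724 (2544 bases), took 26.5% in Dicer controls (138 to 507 counts) and 9.64% in Dicer iKO (17.0 to 148 counts), and 0.586% to 7.43% in the other groups. These values were chosen after they were seen, no test was made, and transcripts that share most of their bases are divided by estimate.

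The antisense gene Il1bos, which overlaps Il1b exons on the opposite strand, held 61 counts summed over the crushed, 77 over the contralateral and 61 over the uncrushed libraries, while Il1b held 143, 18 and 14. Gm14023, which overlaps Il1a, held 13, 17 and 13 counts, while Il1a held 33, 16 and 16. Neither antisense gene was among the genes of the mutant files used here.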
